A study of Arabidopsis thaliana with 16 samples.

Results

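The genes described are the subunits of the 26S proteasome in *Arabidopsis thaliana*. They were chosen as a list of 50 loci by subunit name: 12 of the alpha rings and 11 of the beta rings of the 20S core, 10 regulatory ATPases (RPT) and 17 regulatory non-ATPase subunits (RPN). The array held a feature for 49 of the loci, on 46 separate features of the 22687 tested: 11 alpha, 10 beta, 9 RPT and 16 RPN. PAA1 and PAA2, PBE1 and PBE2, and RPT6a and RPT6b each share 1 feature, so these pairs could not be told apart. The feature of RPT1a also matches its paralog RPT1b, and RPN9b was matched to no feature.

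The 26S proteasome degrades proteins that carry ubiquitin chains. The alpha rings gate the entry to the core, the beta rings hold its active sites, and the regulatory particle binds the substrate, removes ubiquitin and unfolds the protein with its ATPase ring. In *Arabidopsis*, most subunits are encoded by pairs of paralogs, and the NAC-type transcription factors NAC53 and NAC78 are known to raise subunit transcripts when proteasome activity is impaired.

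The data were collected from Col-0 callus cells derived from hypocotyls, labelled as 14 days old, on agar plates in the dark in BRIC canisters. WT cells and cells of the T-DNA insertion line SALK_008978C (HSFA2 KO), which lacks the heat shock transcription factor HSFA2, were either flown to the International Space Station, where they were fixed in RNAlater on day 10, or kept on the ground with a delay of 48 h and fixed in the same way. The 4 groups were WT in spaceflight (F Wt), WT on the ground (G Wt), HSFA2 KO in spaceflight (F Hsf) and HSFA2 KO on the ground (G Hsf). Each environment had 5 arrays for WT and 3 for HSFA2 KO cells, 16 Affymetrix ATH1 arrays in total. The arrays of WT plate A1, which was arrayed 2 times in each environment, were averaged. The units of the tests were thus 14, with 4 plates in each WT group and 3 arrays in each HSFA2 KO group. Each genotype was 1 culture line, so the plates do not replicate the genotype. All HSFA2 KO plates were in canister B while WT plates were in A and B. The titles of the G Hsf arrays B3 and B3-2 name the same plate, so that by the titles G Hsf holds 3 arrays of 2 plates. The source name of B3-2 gives another plate position, and the study's methods count 3 HSFA2 KO plates as biological replicates. Whether B3 and B3-2 are of 1 plate is therefore not settled. The tests count these 3 arrays as units, so p-values that involve G Hsf may be too small, and the subunit genes called in such a comparison are also given with B3 and B3-2 averaged. Nothing in the labels says that the plates of a group were separate cultures, so p-values measure the spread between these units only. In bulk RNA, fewer cells of a type and less RNA per cell cannot be told apart.

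The *HsfA2* signal checked the labels. It ran from 3187 to 9180 in the WT units and from 7.38 to 170 in the HSFA2 KO units, and these ranges do not overlap. The log2 fold change was -6.94 on the ground and -6.83 in spaceflight (adjusted p = 0.0353 and 0.0415, limma with Benjamini-Hochberg adjustment). The array medians ran from 68.7 to 123. Of the 7 callus markers 6 had a feature, and their summed signal was 2350 to 3997 in F Wt, 4171 to 7491 in G Wt, 2404 to 3080 in F Hsf and 1455 to 4760 in G Hsf. The markers did not differ together. WIND1 was at 3541 to 7026 in G Wt, 1696 to 2952 in F Wt and 854 to 3638 in G Hsf, with a log2 fold change of -1.14 in F Wt : G Wt (unadjusted p = 0.0198, limma) and -1.86 in G Hsf : G Wt (unadjusted p = 0.00164). LBD16 went the other way, at 151 to 450 in G Wt, 479.9 to 818 in F Wt and 373 to 1085 in G Hsf (1.18 with an unadjusted p of 0.0128, and 1.48 with an unadjusted p of 0.00533, limma). LBD29 and PLT2 had units at 2.81 and 5.30 and none above 170. The 4 photosynthetic leaf markers summed to 141 to 491 over all units. Of these, RBCS1A and PSBO1 were higher in G Hsf than in G Wt by 2.57 and 2.06 (log2; unadjusted p = 0.00998 and 0.0345, limma), at 88.3 to 123 against 8.89 to 44.7 and at 16.3 to 108 against 5.66 to 57.7, and PSBO1 was lower in F Hsf than in G Hsf (-2.89, unadjusted p = 0.00894, limma). The 3 xylem markers summed to 142 to 545 and the 2 cell division markers to 94.4 to 463.

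Proteasome subunit transcripts were high in all 4 groups and differed little between them. The values are MAS5 signals, a linear scale of fluorescence brightness. Of the 46 features, 43 were above the median of every array and 40 above the upper quartile of every array. The exceptions at the median were RPN3b, RPT2b and RPN5b, with mean signals of 145, 195 and 199.7. From the lowest to the highest unit, a subunit gene spanned a median of 1.66-fold, and 38 of 46 spanned less than 2-fold. The narrowest span was 1.36-fold for RPN11, the deubiquitinase of the lid, and the widest was 10.5-fold for the dim RPN5b.

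The residual SD, which is the spread between units of 1 group on the log2 scale, had a median of 0.18 over the subunit genes. Over all features it was 1.14, and over the 11343 features above the median signal it was 0.43. Repeat arrays carry the difference between measurements of a plate. The 2 arrays of plate A1 differed by a median of 0.23 (log2) over the subunit genes in F Wt and 0.22 in G Wt. The G Hsf arrays B3 and B3-2, of 1 plate by their titles, differed by 0.27.

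The groups were compared in 4 ways, with the interaction. Spaceflight was compared with ground in WT cells (F Wt : G Wt) and, separately, in HSFA2 KO cells (F Hsf : G Hsf), and the genotypes were compared on the ground (G Hsf : G Wt) and, separately, in spaceflight (F Hsf : F Wt). Values for all 4 are given in this order where no comparison is named. A positive log2 fold change means that the first group is higher. Of the 46 subunit genes, 40 had a log2 fold change under 0.5 in size in all 4 comparisons. The 6 others were RPN3b, RPN5b, RPN2b, PAD2, PAF2 and PAD1, of which 3 reached 0.75. The smallest adjusted p of any subunit gene was 0.32 (limma, RPN2b in G Hsf : G Wt).

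**Figure D1:**
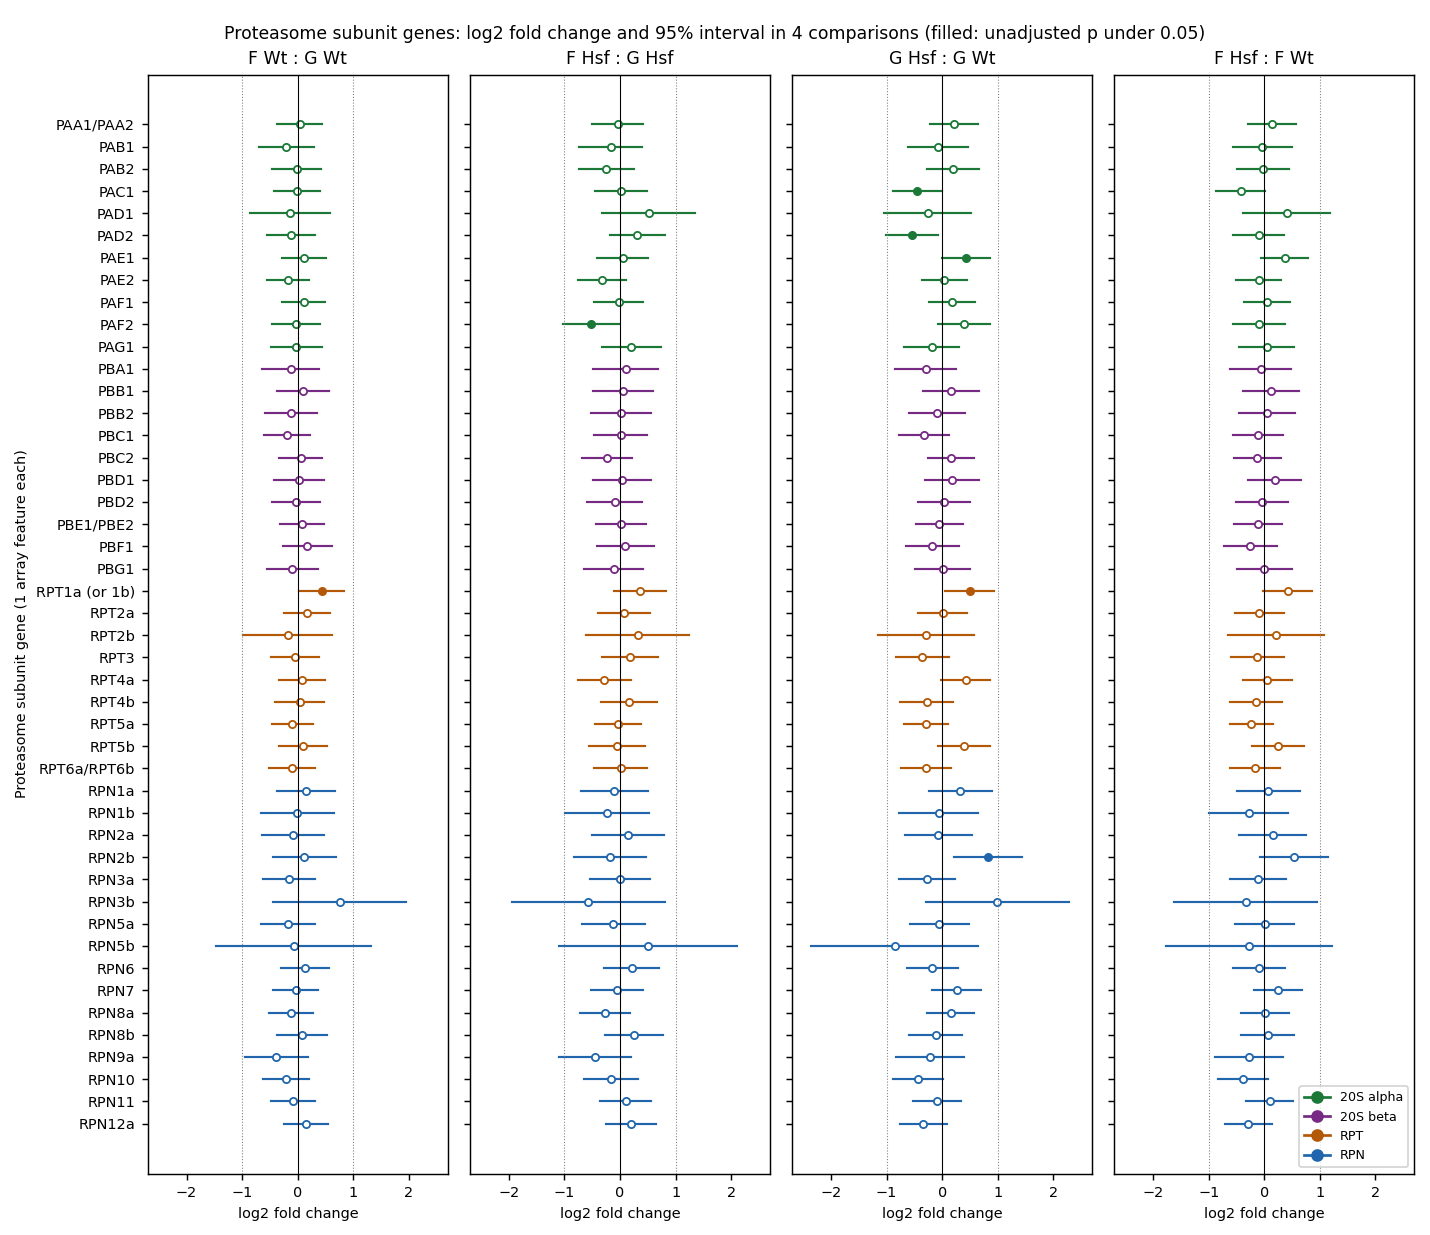
Log2 fold change of each of the 46 subunit genes (points) with its 95% interval (lines) in the 4 comparisons, coloured by subcomplex. Filled points have an unadjusted p under 0.05, and dotted lines mark a log2 fold change of 1 in size; most intervals lie between them, and the widest are those of RPN3b and RPN5b.

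The thresholds of the study were a P-value below 0.01 together with a log2 fold change beyond 1 or -1. No subunit gene passed in limma's test in any comparison. Over all features, 0.807% and 1.51% passed in the spaceflight comparisons of WT and HSFA2 KO cells, 2.46% and 1.75% in the genotype comparisons on the ground and in spaceflight, and 1.02% in the interaction. At an unadjusted p under 0.05, the subunit genes gave 1 call of 46 for spaceflight in WT cells (2.17%, against 4.39% of all features), 1 for spaceflight in HSFA2 KO cells (2.17% against 6.89%) and 5 between genotypes on the ground (10.9% against 10.7%). They gave none in F Hsf : F Wt (7.93% of all features) and none in the interaction (4.74%). These shares are near or below the background in this fit. Of the features above the median signal, it called 2.97%, 5.81%, 13.9% and 9.64% in the 4 comparisons and 3.13% in the interaction. The result depends on how the spread is fitted. A fit in which the spread may follow the signal level, given below, called 28.3% of the subunit genes in G Hsf : G Wt. It called 13% of all features there and 20.9% of those above the median signal.

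The intervals give the range of change of single genes. The 95% interval of the log2 fold change lay wholly between -1 and 1 for 44, 40, 40 and 41 of 46 subunit genes in the 4 comparisons. Over all features this held for 26.1%, 19.8%, 18.6% and 20%, and over the features above the median signal for 52.2%, 39.5%, 37.2% and 40.0%. For the interaction it held for 35 of 46 genes and 11.5% of all features. The genes whose interval reached past -1 or 1 in at least 1 of the 4 comparisons were PAD1, PAD2, PAF2, RPT2b, RPN2b, RPN3b, RPN5b and RPN9a. From the estimate to the end of its interval was a median of 0.43 to 0.50 over the subunit genes in the 4 comparisons. For a gene with an interval of this width, a smaller estimate was thus not called in this fit. Genes with narrower intervals were called below the median, as PAE1 at 0.43 and PAC1 at -0.45 in G Hsf : G Wt, where the median was 0.47. A fit in which the spread may follow the signal level, given below, called some smaller changes. RPT5a, at -0.29 in G Hsf : G Wt, was among them (unadjusted p = 0.0332, limma with that trend).

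The median log2 fold change over the subunit genes was -0.03 and 0.01 for spaceflight in WT and HSFA2 KO cells (all features -0.03 and -0.07), and -0.07 and -0.04 for genotype on the ground and in spaceflight (all features 0.12 and 0.07). After quantile normalization the median of all features in G Hsf : G Wt was -0.01 and that of the subunit genes -0.03, so the gap between them was smaller under that scaling. The median log2 signal over the genes of a unit was 11.02 ± 0.03 in F Wt (SD, n = 4), 10.98 ± 0.11 in G Wt (n = 4), 10.92 ± 0.07 in F Hsf (n = 3) and 11.02 ± 0.16 in G Hsf (n = 3), and the groups overlap.

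**Figure D2:**
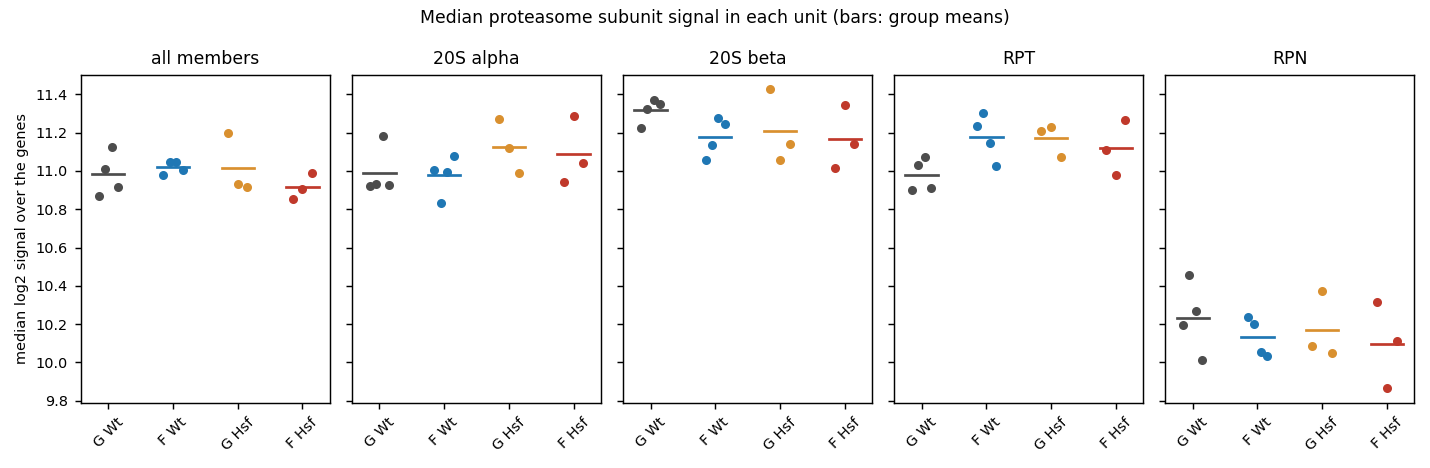
Median log2 signal over the genes of each subcomplex in each of the 14 units (points), with group means (bars); the axis is cut to show the spread. All subunit genes together lie between 10.9 and 11.2 in every unit, and the RPT medians of the groups overlap.

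Of the subcomplexes, only the RPT genes had a median log2 fold change over 0.1 in size in any of the 4 comparisons. It was -0.28 in G Hsf : G Wt, but the mean of the same 9 genes was -0.02, and the median signal of the RPT genes in a unit was on average 0.19 higher in G Hsf. The measures thus differ in sign, with 4 RPT genes above 0 and 5 below. The medians of the alpha, beta and RPN genes in G Hsf : G Wt were 0.04, -0.02 and -0.08.

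Among the alpha subunits, which form the outer rings, PAC1, PAE1 and PAD2 had the smallest p of a test over the 4 groups. PAC1 (At3g22110) gave signals of 5790, 5384, 4673 and 5619 in G Wt, 5455, 5043, 5234 and 5459 in F Wt, 3584, 4646 and 3599 in G Hsf and 4436, 3938 and 3546 in F Hsf. All 6 HSFA2 KO units were below all 8 WT units. Between genotypes the log2 fold change was -0.45 ± 0.20 (SE) on the ground (unadjusted p = 0.0457, adjusted p = 0.45, limma) and -0.42 ± 0.20 in spaceflight (unadjusted p = 0.0597). Between spaceflight and ground it was -0.01 in WT and 0.02 in HSFA2 KO cells.

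PAE1 (alpha subunit type 5, At1g53850) was at 3076, 2511, 2957 and 2772 in G Wt, 2977, 3293, 2769 and 3140 in F Wt, 4213, 3495 and 3713 in G Hsf and 3581, 4259 and 3937 in F Hsf. Here all 6 HSFA2 KO units were above all 8 WT units, the opposite of PAC1. Its log2 fold change between genotypes was 0.43 ± 0.19 on the ground (unadjusted p = 0.0485, adjusted p = 0.46, limma) and 0.37 ± 0.19 in spaceflight (unadjusted p = 0.0849). Its paralog PAE2 had log2 fold changes of 0.04 and -0.10 in the same comparisons.

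PAD2 (At5g66140) was at 1383, 1649, 1808 and 1569 in G Wt, 1450, 1379, 1594 and 1415 in F Wt, 1124, 1249 and 930.5 in G Hsf and 1318, 1608 and 1177 in F Hsf. The G Hsf units were below every G Wt unit, while the F Hsf and F Wt units overlap. On the ground the log2 fold change between genotypes was -0.55 ± 0.21 (unadjusted p = 0.0252, adjusted p = 0.39, limma). With the array run as a term, inferred from the repeat marks in the titles, it was -0.37 (unadjusted p = 0.10, limma). PAF2 (At1g47250), named for its call, was the 1 gene called in F Hsf : G Hsf. It was at 1196, 1099 and 1168 in G Hsf and 803, 753 and 861 in F Hsf, groups that do not overlap, with a log2 fold change of -0.52 ± 0.23 (unadjusted p = 0.0425, limma). The share of all features lower at this p was 4.14%. The 1 downward call of 46 is below that share.

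With G Hsf B3 and B3-2 averaged as 1 plate, the unadjusted p was 0.0701 for PAF2, 0.0538 for PAC1 and 0.0822 for PAE1, so that these calls ended, and 0.0307 for PAD2 (limma). The call on PAF2 held without F Wt B2, G Wt A1 or G Wt B1 and ended without any other unit, with an unadjusted p of at most 0.10 (limma). The call on PAC1 held without G Wt B1 or G Hsf B3-2 and ended without any other unit (unadjusted p up to 0.12, limma), and that on PAE1 ended whichever unit was left out (unadjusted p up to 0.14, limma). PAD2 lost its call without G Wt B1 or G Hsf B5, at an unadjusted p of 0.0605 and 0.10 (limma). The other alpha genes, PAA1/PAA2, PAB1, PAB2, PAD1, PAE2, PAF1 and PAG1, had log2 fold changes from -0.32 to 0.52 in the 4 comparisons and gave no call.

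None of the 10 beta features gave a call in any comparison, and their log2 fold changes ran from -0.33 to 0.19. They include the catalytic subunits PBA1, PBB1 and PBB2, and PBE1/PBE2, of the caspase-like, trypsin-like and chymotrypsin-like activities. PBA1 (At4g31300) was at 1720, 2110, 1964 and 1397 in G Wt, 1520, 2176, 1623 and 1302 in F Wt, 1380, 1384 and 1598 in G Hsf and 1654, 1272 and 1794 in F Hsf, and all groups overlap. Its interval in F Wt : G Wt ran from -0.64 to 0.38. The shared feature of PBE1 and PBE2 stayed between 4856 and 6600 in all 14 units.

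The non-catalytic beta subunits were as steady. PBC1 (beta subunit type 3, At1g21720) was at 3146, 3473, 3309 and 3757 in G Wt, 2508, 3175, 3175 and 3080 in F Wt, 3002, 2520 and 2662 in G Hsf and 2463, 3207 and 2635 in F Hsf. The G Hsf units were below every G Wt unit, with a log2 fold change of -0.33 ± 0.20 (unadjusted p = 0.14, limma). PBF1 (At3g60820) was at 7807, 8548, 9095 and 10540 in G Wt, 8566, 9671, 10340 and 11890 in F Wt, 9170, 7454 and 7262 in G Hsf and 7702, 9680 and 8114 in F Hsf, and all groups overlap. Its largest log2 fold change was -0.25, in F Hsf : F Wt (interval -0.72 to 0.23).

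Among the ATPases of the base ring, RPT1a (At1g53750, a feature shared with RPT1b) had the smallest p of the test over the 4 groups of any subunit gene (unadjusted p = 0.00935, limma). It was at 1909, 2021, 1590 and 2013 in G Wt, 2654, 2527, 2719 and 2240 in F Wt, 2605, 2561 and 2775 in G Hsf and 3362, 2972 and 3871 in F Hsf. It was the only subunit gene whose groups did not overlap in any of the 4 comparisons: F Wt above G Wt, F Hsf above G Hsf, and HSFA2 KO above WT in both environments. The 4 comparisons share the same 4 groups and are not independent. The shares of all features with this pattern, or with a p this small in that test, are not given. The means of RPT1a were 1883 ± 202 in G Wt (SD, n = 4) and 2535 ± 212 in F Wt (n = 4). They were 2647 ± 113 in G Hsf (n = 3 arrays) and 3402 ± 451 in F Hsf (n = 3).

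The log2 fold change of RPT1a was 0.43 ± 0.19 in F Wt : G Wt (unadjusted p = 0.0395, limma), where 1.90% of all features were higher at this p. For spaceflight in HSFA2 KO cells it was 0.35 ± 0.22 (unadjusted p = 0.13), and for genotype 0.50 ± 0.20 on the ground (unadjusted p = 0.03) and 0.42 ± 0.20 in spaceflight (unadjusted p = 0.0596, all limma). The interaction was -0.08 with an interval of -0.70 to 0.54. The spaceflight call in WT cells ended without F Wt A1, F Wt A2, F Wt B1, G Wt A1, G Wt B1 or F Hsf B3 (unadjusted p from 0.0515 to 0.11, limma), and among WT plates of canister B the log2 fold change was 0.46 (unadjusted p = 0.19, limma). The genotype call on the ground ended without G Wt B1 or any of the 3 G Hsf arrays (unadjusted p from 0.0515 to 0.0768, limma), and with G Hsf B3 and B3-2 averaged it ended at an unadjusted p of 0.05002. Of the callus markers given above, WIND1 was lower and LBD16 higher in F Wt than in G Wt, each without overlap, and their part in this difference was not tested.

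RPT4a (At5g43010) was at 1711, 2091, 2153 and 1870 in G Wt, 2044, 2050, 2120 and 2031 in F Wt, 2981, 2405 and 2477 in G Hsf and 2162, 1828 and 2478 in F Hsf. The G Hsf units were above every G Wt unit, with a log2 fold change of 0.42 ± 0.20 (unadjusted p = 0.0613, limma), while its paralog RPT4b was at -0.28. RPT5b (At1g09100) was at 1252, 1305, 1038 and 1388 in G Wt, 1388, 1566, 1225 and 1152 in F Wt, 1851, 1443 and 1600 in G Hsf and 1499, 1486 and 1717 in F Hsf. Its G Hsf units were also above every G Wt unit (0.39 ± 0.21, unadjusted p = 0.0934, limma). Its paralog RPT5a (At3g05530), named for its range, was at 5605 to 6124 in the 6 HSFA2 KO units and at 6382 to 7761 in the 8 WT units.

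RPT2a, RPT2b, RPT3, RPT4b, RPT5a and RPT6a/RPT6b gave no call in any comparison, with log2 fold changes from -0.35 to 0.32. Of the 9 RPT features, 6 did not overlap in G Hsf : G Wt, where 13.2% of all features and 19.7% of those above the median signal did not; 3 were higher (RPT1a, RPT4a and RPT5b) and 3 lower (RPT3, RPT5a and RPT6a/RPT6b), and RPT1a alone passed the test.

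**Figure D3:**
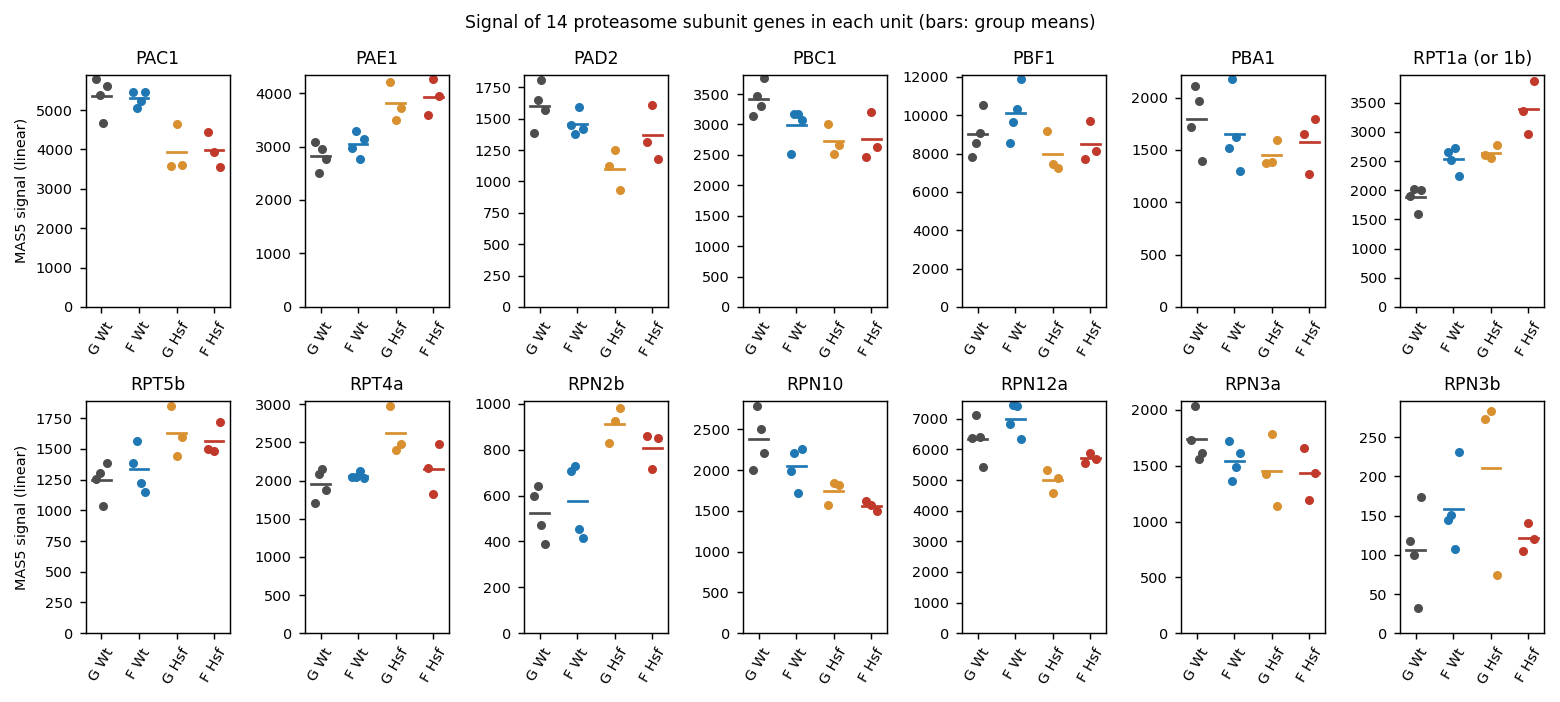
MAS5 signal (linear axis from 0) of 14 subunit genes in the 14 units (points), with group means (bars). RPT1a is lowest in G Wt and highest in F Hsf; PAC1 lies lower and PAE1 higher in all 6 HSFA2 KO units than in the 8 WT units.

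RPN2 is one of the largest subunits of the base and a scaffold for other subunits. RPN2b (At1g04810) was at 598, 641, 469.6 and 388 in G Wt, 706, 728, 452 and 416 in F Wt, 828, 923 and 983 in G Hsf and 859.8, 716 and 851 in F Hsf. Within WT cells, the plates of canister A, given first, were above those of canister B in both environments. Plate A1 is an average of repeat arrays that differed widely, at 902 and 553 in F Wt and at 765 and 468 in G Wt. The lowest of these is below G Wt B1. Between genotypes on the ground the log2 fold change was 0.82 ± 0.28 (unadjusted p = 0.0123, adjusted p = 0.32, limma), and it was 1.09 against the WT plates of canister B alone, where all HSFA2 KO plates were; RPN2b passed the study's thresholds there. In F Hsf : F Wt it was 0.53 ± 0.28 (unadjusted p = 0.0807, limma). The call on the ground held without any single unit and with G Hsf B3 and B3-2 averaged (unadjusted p = 0.0241), and ended without both of them (0.94, unadjusted p = 0.059, limma). RPN2a, its paralog, was at -0.07 and 0.15 in the 2 genotype comparisons.

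The 3 upward calls in G Hsf : G Wt were RPN2b, RPT1a and PAE1, and the 2 downward calls were PAC1 and PAD2. At this p, 6.55% of all features were higher and 4.12% lower. With G Hsf B3 and B3-2 averaged, RPN2b and PAD2 kept their calls, while PAC1, PAE1 and RPT1a lost theirs. The markers WIND1, LBD16, RBCS1A and PSBO1 differed in the same comparison, as given above, and their part in these calls was not tested.

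RPN10, a receptor for ubiquitin chains, and RPN12a, a lid subunit whose *Arabidopsis* mutant has altered cytokinin responses, were both lower in HSFA2 KO cells without reaching a call. RPN10 (At4g38630) was at 2007, 2787, 2500 and 2214 in G Wt, 1988, 2205, 1724 and 2266 in F Wt, 1572, 1845 and 1818 in G Hsf and 1617, 1568 and 1504 in F Hsf. The HSFA2 KO units were below the WT units in each environment, with log2 fold changes of -0.44 ± 0.21 (unadjusted p = 0.0573) on the ground and -0.38 ± 0.21 (unadjusted p = 0.0929, limma) in spaceflight. RPN12a (At1g64520) was at 6389, 7116, 6398 and 5417 in G Wt, 6819, 7443, 7404 and 6350 in F Wt, 5323, 4571 and 5065 in G Hsf and 5566, 5893 and 5695 in F Hsf. Here too the genotypes did not overlap in either environment, with log2 fold changes of -0.34 ± 0.19 (unadjusted p = 0.10) and -0.29 ± 0.19 (unadjusted p = 0.16, limma).

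RPN3 is a structural subunit of the lid. RPN3a (At1g20200) was at 1735, 2037, 1560 and 1617 in G Wt, 1724, 1364, 1485 and 1612 in F Wt, 1426, 1782 and 1142 in G Hsf and 1663, 1197 and 1437 in F Hsf. RPN3b (At1g75990) was dim, at 117, 100.3, 32.5 and 173 in G Wt, 144, 151, 107 and 231 in F Wt, 273, 284 and 74.4 in G Hsf and 105, 140 and 120 in F Hsf. Both genes overlap between all groups. Their log2 fold changes in G Hsf : G Wt were -0.28 and 0.99, the widest gap within a pair, and the interval of RPN3b ran from -0.30 to 2.28. Without G Hsf B5, RPN3b was called in G Hsf : G Wt and in the interaction at an unadjusted p under 0.05 in limma. The other RPN genes gave no call: RPN1a, RPN1b, RPN2a, RPN5a, RPN5b, RPN6, RPN7, RPN8a, RPN8b, RPN9a and RPN11 had log2 fold changes from -0.86 to 0.50. The lowest value was that of RPN5b in G Hsf : G Wt, where its signal was 274 on array B3 and 26.2 on array B3-2.

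Overlap was counted for all subunit genes. The groups did not overlap for 1 of 46 genes between spaceflight and ground in WT cells (3.07% of all features) and 8 in HSFA2 KO cells (13.0%), and for 15 between genotypes on the ground (13.2%) and 7 in spaceflight (10.5%). In G Hsf : G Wt the share was 32.6% of the subunit genes, and 19.7% of the features above the median signal; of the 15 genes, 7 were higher and 8 lower. All 6 HSFA2 KO units were apart from all 8 WT units for 3 genes, PAC1 and RPT5a lower and PAE1 higher, against 1.67% of all features. This last count was added after the values had been seen, and its share over the features above the median signal is not given.

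A fit in which the spread may follow the signal level gave more calls in the genotype comparisons. With such a trend in limma, 13 subunit genes were called at an unadjusted p under 0.05 in G Hsf : G Wt (28.3%), where 13.0% of all features and 20.9% of those above the median signal were called. The 13 were PAC1, PAD2, PBC1, RPT3, RPT5a, RPN10 and RPN12a, which were lower, and PAE1, PAF2, RPT1a, RPT4a, RPT5b and RPN2b, which were higher. In F Hsf : F Wt it called 6 (PAC1, RPN10 and RPN12a lower, PAE1, RPT1a and RPN2b higher), or 13.0%, against 9.96% and 15.8%. For spaceflight it called 1 in WT cells (4.38% of all features) and 3 in HSFA2 KO cells (7.78%), and for the interaction 0 (4.89%). No subunit gene passed an adjusted p of 0.05 with the trend, where 1.96% of all features did between genotypes on the ground and 1.06% in spaceflight.

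The ratio of the signals of the paralogs of 1 subunit was taken within each unit for the 15 pairs with separate features. Signs were opposite in 11, 7, 10 and 9 of the 15 pairs in the 4 comparisons. Fold changes near 0 can take either sign, and the share of opposite signs among other feature pairs is not given. The median gap between the fold changes of a pair was 0.19, 0.25, 0.38 and 0.22 on the log2 scale.

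For 2 pairs the ratio separated the genotypes. The log2 ratio of RPT5a over RPT5b was 1.71 to 1.96 in the 6 HSFA2 KO units and 2.03 to 2.75 in the 8 WT units. The log2 ratio of RPN2a over RPN2b was -0.50 to 0.22 in the HSFA2 KO units and 0.26 to 1.05 in the WT units. For PAE1 over PAE2 the groups did not overlap in any of the 4 comparisons: the ratio was highest in F Hsf, at -0.62 to -0.28, and lowest in G Wt, at -1.28 to -0.97. The ratios of the other pairs overlapped in at least 2 comparisons. These ratios were examined after the fold changes had been seen and were not tested. RPT5a alone also separated the genotypes, as given above. The share of other feature pairs whose ratio separates the genotypes is not given.

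**Figure D4:**
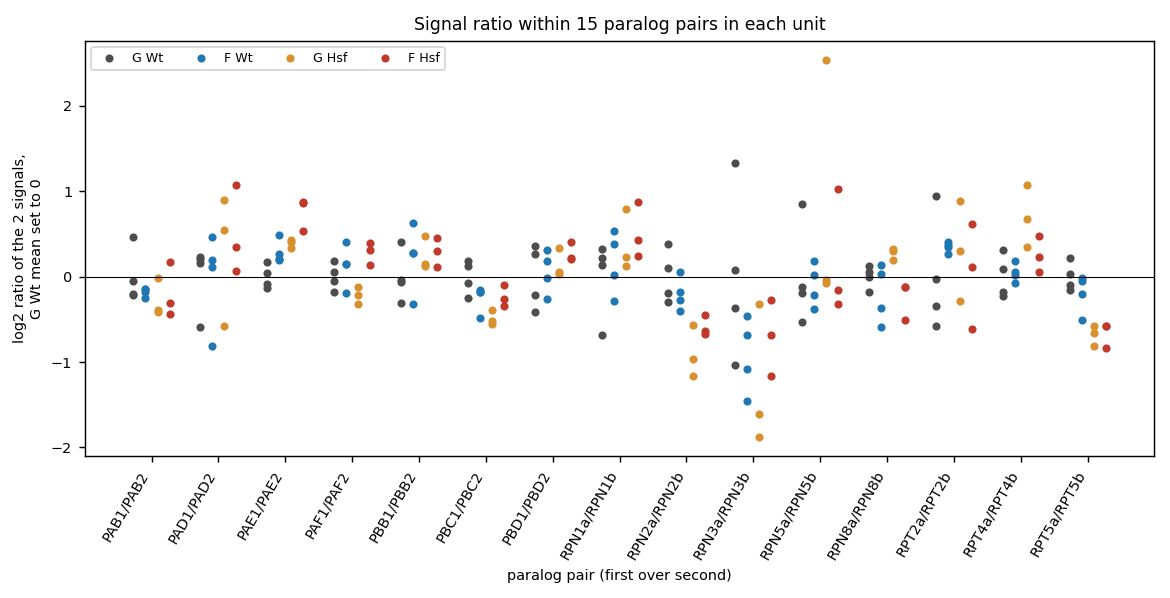
Log2 ratio of the signals of the 2 genes of each of 15 paralog pairs in each unit, with the G Wt mean of each pair set to 0 and colours for the 4 groups. The HSFA2 KO units lie below all WT units for RPT5a/RPT5b and RPN2a/RPN2b, and RPN3 and RPN5, pairs with a dim gene, scatter most.

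Genes that act with the proteasome were given by lists. RPN13 and 2 DSS1 loci, 3 further subunits with a feature, gave no call. Among the 16 regulators and assembly factors, 3 were higher and 1 lower at an unadjusted p under 0.05 between genotypes on the ground, and 2 were higher and 1 lower in spaceflight. Of all features 10.7% and 7.93% were called there. Between spaceflight and ground none was called in WT cells (4.39% of all features), and 1 was higher in HSFA2 KO cells (6.89% called in either direction). The 10 subunits of the COP9 signalosome, a complex related to the lid, gave no call in any comparison.

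PA200 (At3g13330), a proteasome activator that caps the core, was the 1 listed regulator past the study's thresholds. It was at 601, 732, 688 and 643 in G Wt, 957, 991, 795 and 536 in F Wt, 1034, 1266 and 1911 in G Hsf and 1970, 1370 and 1887 in F Hsf. All HSFA2 KO units were above all WT units. Its log2 fold change between genotypes was 1.03 ± 0.29 on the ground (unadjusted p = 0.00443, adjusted p = 0.26, limma) and 1.11 ± 0.29 in spaceflight (unadjusted p = 0.00273, adjusted p = 0.34, limma). With the spread trend the adjusted p was 0.0134 and 0.0126.

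NAC53 (At3g10500) was at 1013, 1344, 1627 and 1565 in G Wt, 1528, 1960, 2301 and 1861 in F Wt, 1406, 3344 and 2308 in G Hsf and 3013, 2607 and 3354 in F Hsf. The F Hsf units were above every F Wt unit, and on the ground the genotypes overlap. Between genotypes its log2 fold change was 0.70 ± 0.31 on the ground (unadjusted p = 0.0446, limma) and 0.65 ± 0.31 in spaceflight (unadjusted p = 0.0577). The G Hsf signals of 1406 and 3344 are those of arrays B3 and B3-2, whose titles name the same plate. The p on the ground may thus be too small. For the genes of these lists, values with B3 and B3-2 averaged are not given. NAC78 (At5g04410) gave log2 fold changes from -0.04 to 0.28 in the 4 comparisons with no call, at 3917 to 7138 over all units.

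**Figure D5:**
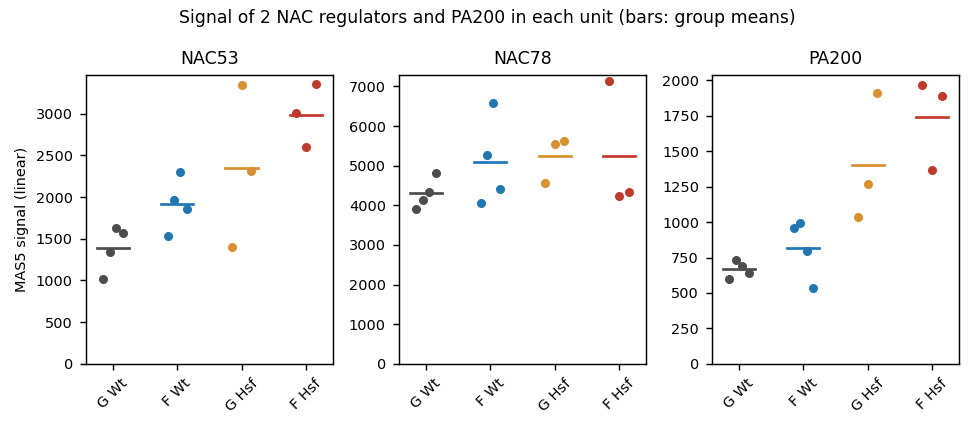
MAS5 signal (linear axis from 0) of NAC53, NAC78 and PA200 in each unit (points), with group means (bars). PA200 lies at 1034 to 1970 in the HSFA2 KO units and at 536 to 991 in the WT units.

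The other calls in this list included the unnamed locus At2g26780, higher in HSFA2 KO cells on the ground (0.95 ± 0.32, adjusted p = 0.32, limma). At3g53970, annotated as related to a proteasome inhibitor, was lower in HSFA2 KO cells on the ground (-0.66 ± 0.23, adjusted p = 0.33, limma). It was higher in F Hsf than G Hsf (0.73 ± 0.25, adjusted p = 0.62, limma). In F Hsf : F Wt, UCH2, a ubiquitin C-terminal hydrolase, was higher (0.67 ± 0.27, unadjusted p = 0.0303, adjusted p = 0.58, limma), and its groups overlap. At5g14710 was lower there (-0.94 ± 0.41) and was also the 1 call of this list in the interaction (-1.32 ± 0.57). At5g14710 was dim, at 66.2 to 320 over all units. Its F Hsf units overlapped the F Wt units, and the lowest value was that of F Hsf B5. Its unadjusted p was 0.0401 in F Hsf : F Wt and 0.0411 in the interaction (adjusted p = 0.61 and 0.999, limma). Of 7 ubiquitin and E1 genes, UBQ11 (At4g05050), which encodes polyubiquitin, was the 1 called. It was at 10040 to 16100 in the HSFA2 KO units and at 17310 to 23790 in the WT units. Its log2 fold changes were -0.70 ± 0.24 on the ground and -0.59 ± 0.24 in spaceflight (adjusted p = 0.33 and 0.59, limma). Polyubiquitin genes have near-identical copies, whose RNA this feature may also bind. The genes of this paragraph were named after their calls had been seen.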

How the data were processed

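The deposited values are intensity values, MAS5 signals on a linear scale that the authors made with Affymetrix Expression Console, scaled so that all arrays share 1 trimmed mean (2% of the features cut at each end). The authors' deposited annotation table gave the loci; its other columns, the log2 fold changes and p-values of the authors' comparisons, were not used. The study's methods also name quantile normalization in limma for its statistics; here it is an alternative. Of 22810 rows, 22687 with a locus annotation were tested and 123 left out.

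Signals were taken to log2 with no offset. The functions lmFit and eBayes of limma 3.58.1 (R 4.3.3) were fitted to 14 units with 1 mean per group and 1 spread per feature, with 10 residual and 1.65 prior degrees of freedom, and Benjamini-Hochberg adjustment ran over all features. The study's P-value was read as unadjusted. The fit was tested on simulated data. Figures were drawn with Python 3.11 and matplotlib 3.10.9.

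Each locus was read from 1 feature. The RefSeq table (TAIR10.1) gives a symbol other than the locus tag for 39 of the 50 loci; the other names follow the subunit type in the array annotation, with the letters used for the family. Values of single units are given for the 3 genes of each subcomplex with the smallest p of limma's F test over the 4 groups, for genes past the study's thresholds and for paralog pairs whose fold changes differ by over 1; other genes are named where called. In the further lists, genes with an unadjusted p under 0.01 and NAC53 and NAC78 are named, except for a result that is not reported here. The members, lists and rules were chosen with earlier results of these data known. Alternatives were quantile normalization, an offset of 32, a spread trend, canister B only, averaged B3 arrays, the array run as a term, all 16 arrays, a signal filter, plate position as a block and leaving out each unit. The array run was inferred from the repeat marks in the titles, as no label names a run, and the groups are not balanced for it. Leaving out both G Hsf B3 arrays was added after the data were seen. Arrays have no read depth, and their number limits the precision.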

Additional observations from a re-analysis of the deposited data

Results flagged for a closer look

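In the 2 groups of 4 units, 102 sets of values were examined for a unit far from the other 3, the 46 subunit genes and the medians of the subcomplexes and of all genes. A unit stood apart in 4 of them by Dixon's ratio, the gap to the nearest unit over the whole range and its 95% critical value for 4 values. Chance marks about 1 set in 20. PAF2 was at 1099 in F Wt B2 and at 789 to 799 in the other F Wt units (ratio 0.962). PBC1 was at 2508 in F Wt A1 and at 3080 to 3175 in the others (0.87). RPN7 was at 3552 in F Wt B1 and at 3918 to 3990 in the others (0.844). The median over the alpha genes was at a signal of 2324 in G Wt B1 and at 1941 to 1950 in the other G Wt units (0.973). No subunit gene differed between genotypes in its response to spaceflight at an unadjusted p under 0.05 in limma.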

How the results depend on the processing

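No called gene changed sign under any alternative, and the median log2 fold change over the subunit genes, near 0 throughout, ran from -0.12 to 0.07 over all comparisons and alternatives, on both sides of 0 in all but F Hsf : F Wt. The number of subunit genes at an unadjusted p under 0.05 (limma) moved as follows. As reported they were 1 and 1 for spaceflight in WT and HSFA2 KO cells, 5 and 0 for genotype on the ground and in spaceflight, and 0 for the interaction, and the order is kept here. With a spread trend the counts were 3, 13 and 6 in the second to the fourth (7.78%, 13.0% and 9.96% of all features), and with signals over the median only 3, 11 and 5, where 9.04%, 19.1% and 13.9% of the features tested were called. With WT plates of canister B only they were 0, 0, 1 and 1 in the 4 comparisons (RPN2b both times), and 1 gene, RPN2b in G Hsf : G Wt, passed the study's thresholds. With the B3 arrays averaged they were 0 and 2 in the second and the third (PAD2 and RPN2b; 5.64% and 8.32% of all features). With both B3 arrays left out they were 0, 0 and 1 (PAD2) in the first to the third. The array run as a term gave 0 in F Hsf : G Hsf and 1 in F Hsf : F Wt (PAC1), all 16 arrays gave 1 there (PAC1), and quantile normalization 1 (RPT1a). Leaving out 1 unit in turn gave 0 to 1, 0 to 1, 2 to 4, 0 to 1 and 0 to 1; in F Hsf : F Wt the call was RPN2b without F Wt A2 and RPT1a without F Hsf B4, and in the interaction RPN3b without G Hsf B5. The cause was not tested, except that fewer units entered where plates were left out or averaged.

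With plate position as a replicate block the counts were 0 and 0 for spaceflight in WT and HSFA2 KO cells and 0 for the interaction, and the medians -0.03, -0.02 and -0.01. Plates of the same position did not deviate together (correlations over features of -0.02 to 0.07), so the position only shares a number. Every subunit locus has 1 feature, so averaging features per locus changed nothing. Of the 7 calls, RPN2b held in 22 of 23 alternatives and PAE1 in 5 of 23. The number of plates and 1 culture line per genotype limit the precision, most for the dim RPN3b, RPN5b and RPT2b.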
